A study of Mus musculus with 2 samples.

Results

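Nr3c1 encodes the glucocorticoid receptor, and its occupancy by the transcription factor YY1 was examined in mature adipocytes of the mouse. All listed YY1 peaks with a summit inside the gene or within 100 kb of its ends were taken, which left 1 of the 165 entries of the room temperature list and 1 of the 1259 entries of the cold list. The gene was chosen by the strength of its peak in these same lists. Its pileups, ranks and difference between the conditions are therefore given as descriptions, without a test.

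The glucocorticoid receptor is a nuclear receptor that waits in the cytoplasm in a complex with HSP90 and its co-chaperones. On binding cortisol or corticosterone it enters the nucleus, binds DNA and recruits coactivators or corepressors. In fat it is known for its part in adipocyte differentiation and lipolysis. Nr3c1 is transcribed from the reverse strand and is known for several alternative, untranslated first exons, among them a distal one and a cluster inside a CpG island, all spliced to the same second exon. YY1 is a ubiquitous zinc finger protein that can activate or repress transcription, and binding sites for it have been described upstream of the human gene.

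The cells were adipocytes released by collagenase from the inguinal fat pad of male wild-type C57 mice aged 8 to 10 weeks. The library labelled room temperature came from mice raised at room temperature, and the library labelled cold from mice kept in the cold for 7 days. The labels do not say whether animals were pooled. With 1 library for each condition, the spread between animals is unknown and no value of the comparison could be tested. The labels name ChIP-seq, and their protocol describes CUT&Tag, in which a transposase brought to the antibody cuts and tags nearby DNA. Peak names include the number 30 in the list labelled room temperature, and the number 4 in the one labelled cold. If these were housing temperatures, the baseline animals would have been kept warmer than their label says. The identity of the cells could not be checked from the lists, since binding does not measure expression. None of the 8 adipocyte marker genes, Adipoq and Fabp4 among them, had a listed peak in either library, where 0.864% of all protein-coding genes had one at room temperature and 6.43% after cold.

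The Nr3c1 peak lay inside the gene and far from both of its outer ends. RefSeq places the gene on chromosome 18 from 39410545 to 39519421 (GRCm38.p6, the assembly that mm10 names), a length of 109 kb, and 9.95% of the 21883 protein-coding genes are longer. The room temperature interval ran from 39491614 to 39492032, with its summit at 39491796. The cold interval ran from 39491532 to 39492098, with its summit at 39491805. The cold summit was 81.3 kb from the lower end of the gene and 27.6 kb from the higher end. On the reverse strand the higher end is the 5′ end, so the summit lay after 25.4% of the gene's length. RefSeq lists 15 transcripts of Nr3c1, of which 5 are curated and 10 predicted, against a median of 2 for protein-coding genes. The exons and the starts of these transcripts were not used here, so the summit was not placed against the alternative first exons, and exon and intron were not told apart.

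The summits of both libraries marked nearly the same base. They were 9 bp apart, where the median distance over the 155 room temperature entries that overlapped a cold entry was 30 bp (quartiles 12.5 and 49), and 28 of these had a smaller distance. The 155 entries overlapped 151 different cold entries, since 8 of them shared a cold entry with another. The cold interval contained the whole room temperature interval. It reached 82 bp further on the lower side and 66 bp further on the higher side, which took the width from 419 bp to 567 bp. The ratio of the widths, 1.35, was below the median of 1.49 for these entries. At room temperature the interval was the 32nd widest of 165, and after cold the 161st widest of 1259, so its place by width was lower than its place by any measure of height.

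**Figure D1:**
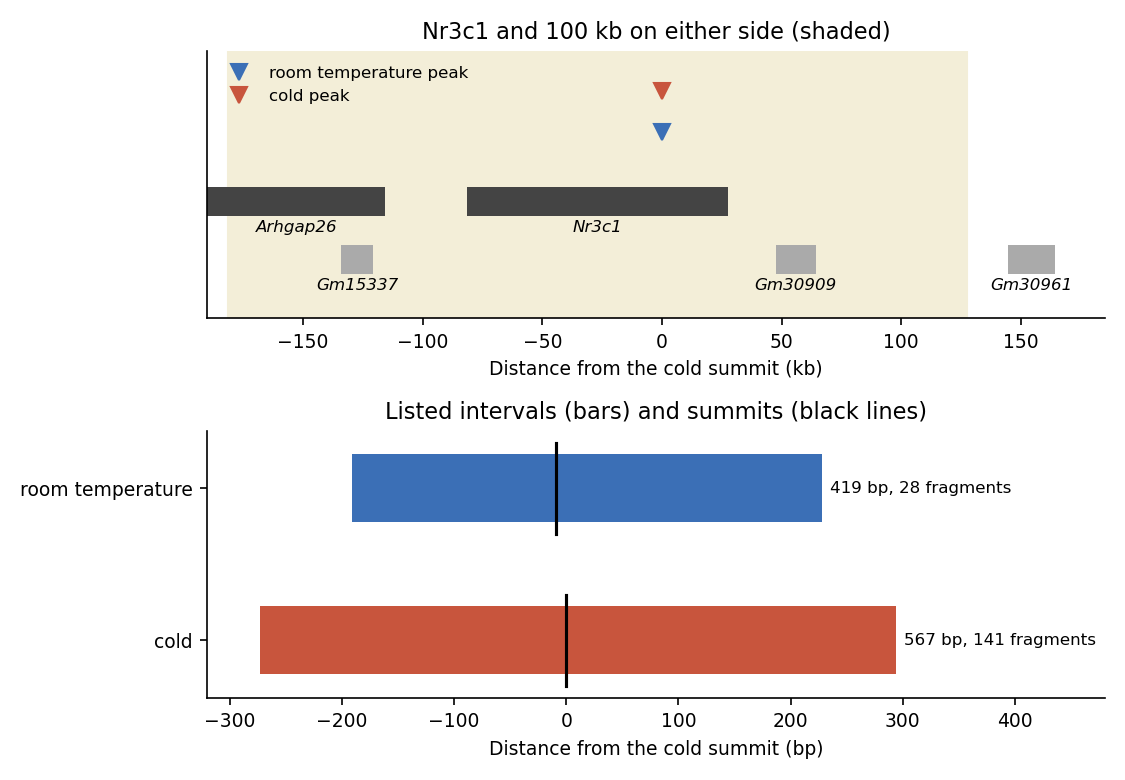
Upper panel, Nr3c1 and its neighbouring genes (dark bars protein-coding, grey bars lncRNA) by distance in kb from the cold summit, with the window of 100 kb shaded and the listed peaks as triangles; Arhgap26 continues beyond the left edge. Lower panel, the listed interval of each library in bp from the cold summit, with black lines at the summits, 9 bp apart; the cold interval contains the room temperature interval.

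At room temperature the summit carried 28 fragments (exact 95% Poisson interval 18.6 to 40.5), against a median of 13 over all entries of the list. The pileup is the number of sequenced fragments covering the summit, recovered from the deposited fold and p-value, and its interval covers counting error only. The authors' fold enrichment, the pileup over the local background with 1 added to both, was 18.4, and their −log10 q was 31. The peak was the fifth of the 165 entries by pileup, and the 4th once entries on backgrounds above 10 fragments were set aside. It was the second strongest by −log10 q and by fold. The entry above it was at Septin7, a cytoskeletal GTPase gene, with 35 fragments (24.4 to 48.7) and a −log10 q of 43.2. The entries below it were those at Tpgs1, a tubulin polyglutamylase subunit gene, with 31 fragments, at Crat, the carnitine acetyltransferase gene, with 33, and at Morf4l1, a chromatin protein gene, with 26. The Tpgs1 summit was also within 1 kb of an end of Madcam1, and the Crat summit within 1 kb of an end of Ptpa. The Poisson intervals of all 5 entries overlapped, so their order is not resolved by counting alone.

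After cold the summit carried 141 fragments (119 to 166), against a list median of 20. This was the second highest pileup of the 1259 entries. The entry with more, 260 fragments, stood on a background of 150 fragments, and Nr3c1 had the highest pileup once entries on backgrounds above 10 fragments were set aside. The fold enrichment was 38.9 and the −log10 q 180, which placed the peak sixth by −log10 q but only 24th by fold. The entries next above it by −log10 q were Septin7 with 108 fragments, Oxsr1, a stress-responsive kinase gene, with 111 and Slmap with 113. The entries next below were the proteasome subunit gene Psmb5 with 122 fragments, Cradd with 96 and Txndc15 with 92. All of these pileups were lower than that of Nr3c1, and only the intervals of Slmap (93.1 to 136), Oxsr1 (91.3 to 134), Septin7 (88.6 to 130) and Psmb5 (101 to 146) overlapped its own.

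The gap between the place by pileup and the place by fold came with the local background. At Nr3c1 the background recovered from the deposited values was 0.58 fragments at room temperature, close to the lowest of that list (0.537), and 17.6% of room temperature entries had a lower one. After cold it was 2.65 fragments, and 96.7% of cold entries had a lower one. The cold background was thus 4.57 times the room temperature background, the sixth largest ratio among the 155 overlapping entries, where the median was 1.36. Larger ratios were found at Adnp (5.27), Napepld and Wdr20 (4.94 each), Uqcc2 and Chtop (4.81 each), which all had lower pileups after cold than Nr3c1, between 17 and 99 fragments. All but Adnp had the same cold background of 2.65 as Nr3c1. Their ratios differed from its own only through room temperature backgrounds of 0.537 or 0.551, near the lowest of that list. No counting interval was computed for the backgrounds. Of the 31 cold entries that shared a background of 2.65, the median pileup was 25.

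**Figure D2:**
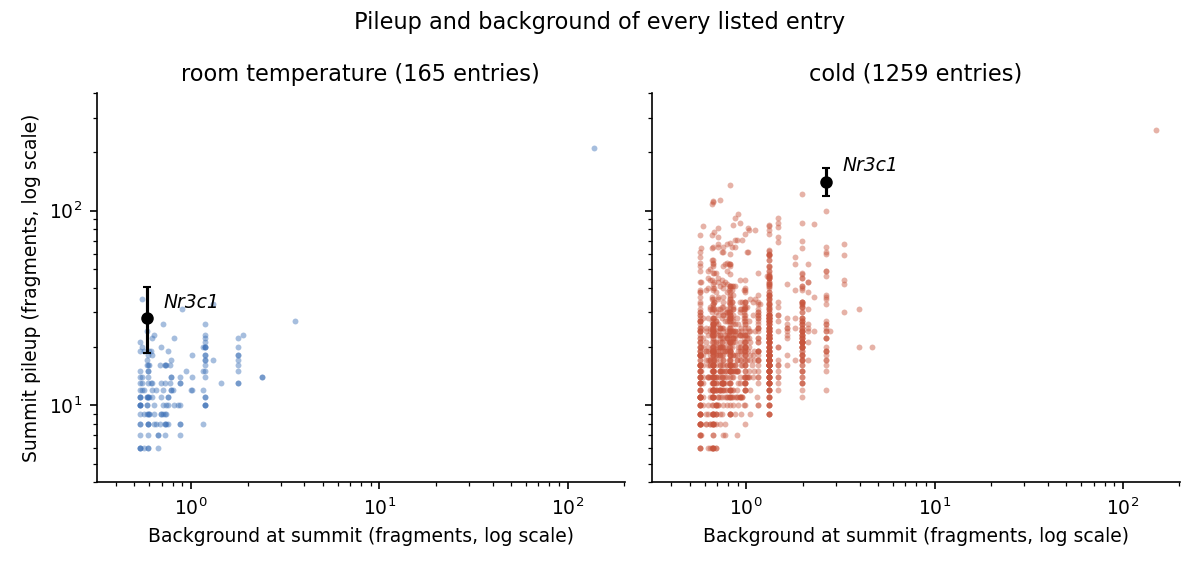
Summit pileup against local background, both in fragments on log axes, for every entry of each list, with Nr3c1 in black and its exact 95% Poisson interval. At room temperature Nr3c1 sits at a background of 0.58 fragments, and after cold at 2.65, above every entry but the one at the far right.

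The cold pileup at Nr3c1 was 5.04 times the room temperature pileup (3.34 to 7.85, from the exact Clopper-Pearson interval of the share of fragments). From the lowest backgrounds and smallest widths of the lists, the cold library was estimated to be 1.05 times as deep. Scaled by this estimate, the ratio was 4.81 (3.19 to 7.49). Over all 155 room temperature entries with a cold overlap the median ratio was 3.31 (quartiles 2.6 and 4.18), and Nr3c1 had the 16th highest. Of these ratios 72 lay inside the counting interval of Nr3c1, 80 below it and 3 above it. The highest ratios belonged to peaks that were weak at room temperature, such as Prpsap1 with 8 against 81 fragments and Oxsr1 with 11 against 111. Among the 29 peaks whose room temperature pileup lay inside the interval of Nr3c1, the ratios ran from 2.15 to 5.95 with a median of 3.43. There Nr3c1 came after Slmap (19 against 113 fragments) and had the highest cold pileup.

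By the authors' fold enrichment the difference at this peak was smaller. The ratio of the deposited folds at Nr3c1 was 2.12, below the median of 2.66 for the overlapping entries, and 106 of the 155 had a higher one. With the background subtracted from each pileup instead of divided, the ratio was 5.05, against a median of 3.45. The size of the cold difference at Nr3c1 therefore depended on how the background entered, and its place among the other peaks moved from the 16th to the 107th. Both measures were higher after cold at Nr3c1, and this direction was not particular to it. The pileup was higher after cold at all 155 overlapping entries (lowest ratio 1.24), and their ratio of folds had a lower quartile of 2.

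**Figure D3:**
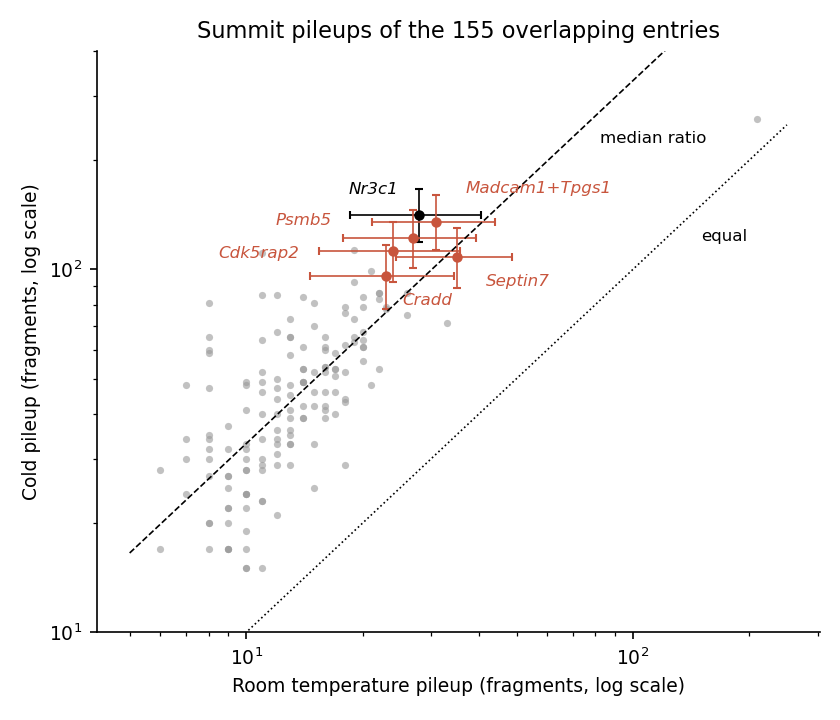
Cold against room temperature summit pileup in fragments on log axes for the 155 room temperature entries that overlap a cold entry, with Nr3c1 (black) and the 5 peaks most like it (red) shown with exact 95% Poisson intervals; the dotted line marks equal pileups and the dashed line the median ratio of 3.31. Nr3c1 lies above the dashed line, at 28 against 141 fragments.

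No other entry was listed near the Nr3c1 peak in either library. At room temperature it was the last of the 4 entries of chromosome 18, and the nearest other interval, at Brd8 and Kif20a with 8 fragments, was 4.87 Mb away on the lower side. After cold the chromosome held 33 entries. The nearest were an interval inside Diaph1, a formin gene, 1.61 Mb away on the lower side with 30 fragments (20.2 to 42.8), and one inside the semaphorin gene Sema6a, 7.84 Mb away on the higher side with 12 fragments (6.2 to 21). These are the first entries outside the window of 100 kb, so the choice of that distance did not decide the count. Between the 2 cold neighbours lay 9.45 Mb that held 64 whole protein-coding genes, Nr3c1 among them. This was the 146th widest such span of the 1183 cold intervals with a neighbour on both sides. The closest genes to Nr3c1 were the lncRNA gene Gm30909, 47.6 kb from the cold summit, and the protein-coding gene Arhgap26, 116 kb from it, and neither had an entry.

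Many other intervals stood further apart. Of the 162 room temperature intervals, 59 had a wider gap to their nearest neighbour than Nr3c1, and the median gap was 2.62 Mb. Of the 1225 cold intervals, 162 had a wider gap, and the median was 0.231 Mb. A neighbour within 100 kb was listed for 13% of room temperature and 31.8% of cold intervals. On chromosome 18 Nr3c1 was the strongest entry of both lists. The next after cold was at Fbxo38 and Spink10 with 69 fragments (53.7 to 87.3), and the next at room temperature was inside Epc1, a gene of the NuA4 acetyltransferase complex, with 15 fragments (8.4 to 24.7). The Poisson intervals of Fbxo38 and Nr3c1 after cold did not overlap, while those of Epc1 and Nr3c1 at room temperature did. For comparison, 4.13% of protein-coding genes had a room temperature summit inside them or within 100 kb, and 24.9% a cold one.

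**Figure D4:**
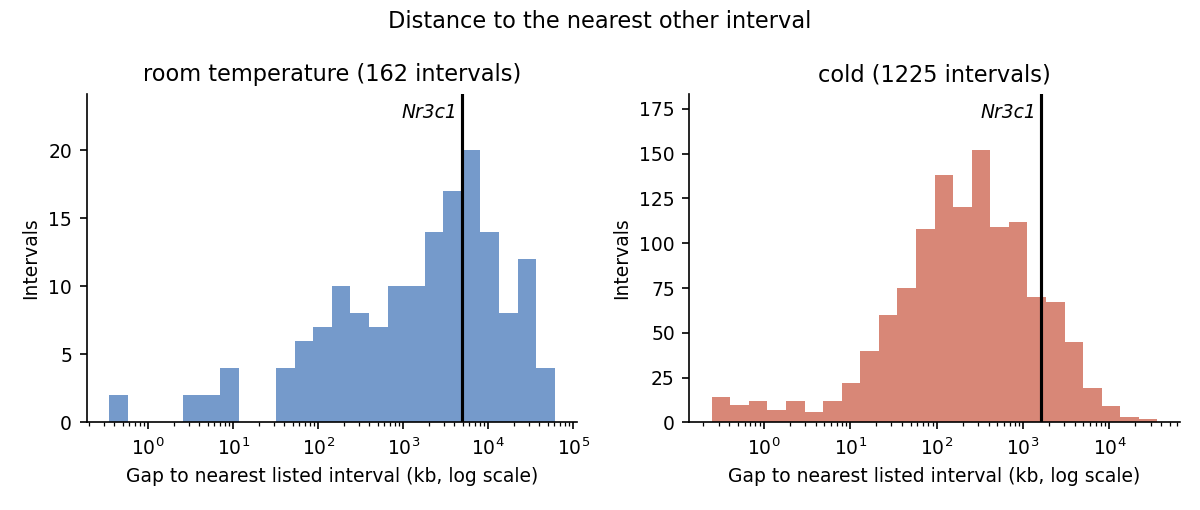
Number of listed intervals by the gap to the nearest other interval of the same list, in kb on a log axis. The black lines mark Nr3c1, at 4867 kb at room temperature and 1614 kb after cold, to the right of the medians of 2624 kb and 231 kb.

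Most listed summits were within 1 kb of a gene end, and Nr3c1 belonged to the minority inside genes and further from any end. This minority numbered 19 of the 165 room temperature entries (11.5%, 7.08 to 17.4) and 157 of the 1259 cold entries (12.5%, 10.7 to 14.4). Nr3c1 had the highest pileup and the highest −log10 q among them in both lists. The next strongest after cold were those in Prpsap1 with 81 fragments (64.3 to 101) and in Hnrnpul1, an RNA-binding protein gene, with 79 (62.5 to 98.5), and both intervals lay below that of Nr3c1. The group had a median pileup of 10 fragments in the room temperature list and of 21 in the cold list. RefSeq starts were at hand for 17 of the 19 and 151 of the 157. Of these, 12 (70.6%, 44 to 89.7) and 91 (60.3%, 52 to 68.1) had a start within 1 kb of the summit, such as Prpsap1 at 161 bp and Hnrnpul1 at 19 bp. Being far from the outer ends of a gene was thus often not being far from a start. For Nr3c1 itself this was not analysed here.

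The peaks most like that of Nr3c1 in both pileups were found by the distance between the pairs of log2 pileups over the 2 libraries. They were, in this order, those at Tpgs1 (0.16), Psmb5 (0.215), Cdk5rap2 (0.4), Septin7 (0.502) and Cradd (0.623), and their summits were all within 1 kb of a gene end. The Tpgs1 peak had 31 and 135 fragments in the room temperature and cold libraries, and the Psmb5 peak 27 and 122. The Cdk5rap2 peak, at a centrosome gene, had 24 and 112, and the Cradd peak, at a death domain adaptor gene, 23 and 96. The 5 ratios ran from 3.09 at Septin7 to 4.67 at Cdk5rap2, all below the ratio of 5.04 at Nr3c1 and inside its counting interval except that of Septin7. The peaks were chosen by these same pileups, so ratios near that of Nr3c1 follow from the choice. The backgrounds of the 5 peaks differed more. After cold they were between 0.658 and 1.99 fragments, below the 2.65 of Nr3c1. At Tpgs1 the background was 0.914 times that at room temperature, which left it first of the cold list by fold with 74.6, against 38.9 at Nr3c1.

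Promoter sequences are shown for the peaks most like that of Nr3c1, to let their letters be read beside their pileups. The motif AANATGGC (GCCATNTT on the other strand), the core that YY1 is known to bind, was searched on both strands of the RefSeq promoters of GRCm38.p6, each 300 bases long from 250 before to 50 after the start. It was present in 6.05% of the 32851 promoters searched and in 349 of the 474 that held a cold summit (73.6%). Promoters on the chromosome of Nr3c1 were not analysed here. Of the 5 like peaks, 4 had it in the promoter. Tpgs1 held 1 copy, Psmb5 held 3, Cdk5rap2 held 4 and Cradd held 2, while both Septin7 promoters near the summit held none. Neither Septin7 window contained the cold summit, so the sequence under that peak was not searched. The stretches of the 2 most like peaks and of Rxrb, the other nuclear receptor gene with a peak in both lists, are printed 5′ to 3′ on the strand of the gene, with the motif in capitals. They come from chr10:79669423-79669468 (plus strand), chr14:54617967-54618191 (minus strand) and chr17:34031638-34031841 (plus strand), and each ends at most 30 bases after the start.
Tpgs1: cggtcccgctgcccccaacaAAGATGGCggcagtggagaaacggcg
Psmb5: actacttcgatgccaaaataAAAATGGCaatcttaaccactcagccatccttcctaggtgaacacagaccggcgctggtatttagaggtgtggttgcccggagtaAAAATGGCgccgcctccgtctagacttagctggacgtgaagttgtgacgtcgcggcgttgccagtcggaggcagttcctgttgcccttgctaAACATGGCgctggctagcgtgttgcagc
Rxrb: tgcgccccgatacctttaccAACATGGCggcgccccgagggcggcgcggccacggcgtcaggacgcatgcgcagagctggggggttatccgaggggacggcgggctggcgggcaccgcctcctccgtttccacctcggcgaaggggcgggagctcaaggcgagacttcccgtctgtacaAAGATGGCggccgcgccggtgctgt

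In these stretches a copy of the motif lay close to the start, at 4 bases after it in Tpgs1, 1 base after it in Psmb5 and 5 bases after it in Rxrb. The further copies lay upstream, at 176 and 91 bases in Psmb5 and 154 bases in Rxrb. Of the like peaks not printed, Cdk5rap2 also had a copy 7 bases after the start. Both Cradd copies lay upstream, at 74 and 29 bases. The cold summits were 71 bp (Tpgs1), 134 bp (Psmb5) and 123 bp (Rxrb) upstream of the start. A match is a description of the letters and not a measured site. The sequence under the Nr3c1 peak was not analysed here.

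Among the 49 nuclear receptor genes, the family of the glucocorticoid receptor, few carried a listed peak. At room temperature 2 did (4.08%, exact interval 0.498 to 14), where 0.864% of all protein-coding genes had a summit inside or within 1 kb of an end. After cold 3 did (6.12%, 1.28 to 16.9), against 6.43% of all protein-coding genes, so after cold the share was near the background. Nr3c1 is one of these genes and was chosen for its peak, so the counts without it are 1 and 2 of the other 48. The retinoid X receptor gene Rxrb, which encodes a dimer partner of many nuclear receptors, had a peak in both lists, outside the gene, 123 bp from its end after cold and also within 1 kb of an end of the zinc transporter gene Slc39a7. Its pileup was 61 fragments in the cold library (46.7 to 78.4), against 16 at room temperature (9.15 to 26), a ratio of 3.81 (2.17 to 7.08). The liver X receptor gene Nr1h3, a sterol sensor, had 26 fragments after cold (17 to 38.1), beside an end of Acp2, and no room temperature entry. The mineralocorticoid receptor gene Nr3c2, the closest relative of Nr3c1, and the adipocyte receptor gene Pparg had no listed peak in either library.

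Some genes whose products act on the receptor protein had cold peaks. Of 17 genes of the receptor's chaperone complex, 3 had a cold peak (17.6%, 3.8 to 43.4) and 0 a room temperature peak. The shares of all protein-coding genes were 6.43%, which lies inside this interval, and 0.864%. They were the co-chaperone gene Tsc1 with 32 fragments (21.9 to 45.2), the HSC70 gene Hspa8 with 28 (18.6 to 40.5) and the HSP90 gene Hsp90ab1 with 10 (4.8 to 18.4) at the stronger of its 2 summits. Hsp90aa1, Fkbp4 and Fkbp5 had none. Of 25 coregulator genes, 5 had a cold peak (20%, 6.83 to 40.7) and 1 a room temperature peak (4%, 0.101 to 20.4), against 6.43% and 0.864% of all protein-coding genes. The 6.43% lies just below its interval and the 0.864% inside its own. The coregulator genes were chosen with earlier results of these data known, and the difference was not tested. The heterochromatin protein gene Cbx3 was in both lists, with 53 fragments in the cold library (39.7 to 69.3) against 17 at room temperature (9.9 to 27.2), a ratio of 3.12 (1.78 to 5.74), and its summit was also within 1 kb of an end of Hnrnpa2b1. The other 4 were in the cold list only, the acetyltransferase gene Ep300 with 31 fragments, the Mediator subunit gene Med1 with 27, the arginine methyltransferase gene Prmt5 with 14 and the corepressor gene Ncor1 with 8. Of 14 genes of nuclear transport, 2 had a cold peak (14.3%, 1.78 to 42.8), and the 6.43% of all protein-coding genes lies inside this interval. They were the importin gene Ipo8 with 22 fragments and the dynein heavy chain gene Dync1h1 with 18. The summits at Ipo8, Med1 and Hsp90ab1 were within 1 kb of an end of another gene, 2610017A05Rik, Gm38963 and Gm35399 in this order.

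Of the genes that supply the hormone or respond to it, 2 had a listed peak. None of the 8 genes of glucocorticoid supply had a peak in either library (0%, interval up to 36.9), among them Hsd11b1, whose enzyme regenerates active glucocorticoid in fat. The shares of all protein-coding genes, 0.864% at room temperature and 6.43% after cold, lie inside this interval. Of 28 genes known to respond to glucocorticoids, 2 had a cold peak (7.14%, 0.877 to 23.5). At room temperature 0 had one (up to 12.3), against 0.864% of all protein-coding genes. Those with a cold peak were Zbtb16, a zinc finger repressor gene, with 21 fragments (13 to 32.1) and Cebpd, an adipogenic transcription factor gene, with 11 (5.49 to 19.7). Tsc22d3, Per1, Klf9, Sgk1 and Pdk4 had no entry. The cold share of this list was close to the 6.43% of all protein-coding genes. A gene without an entry has no measured value, since the lists start at a pileup of 6 fragments and leave out weaker sites. No list other than that of the nuclear receptors contains Nr3c1. Its 141 fragments were more than the pileup of any other member named here, but Nr3c1 was chosen for the strength of its peak.

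**Figure D5:**
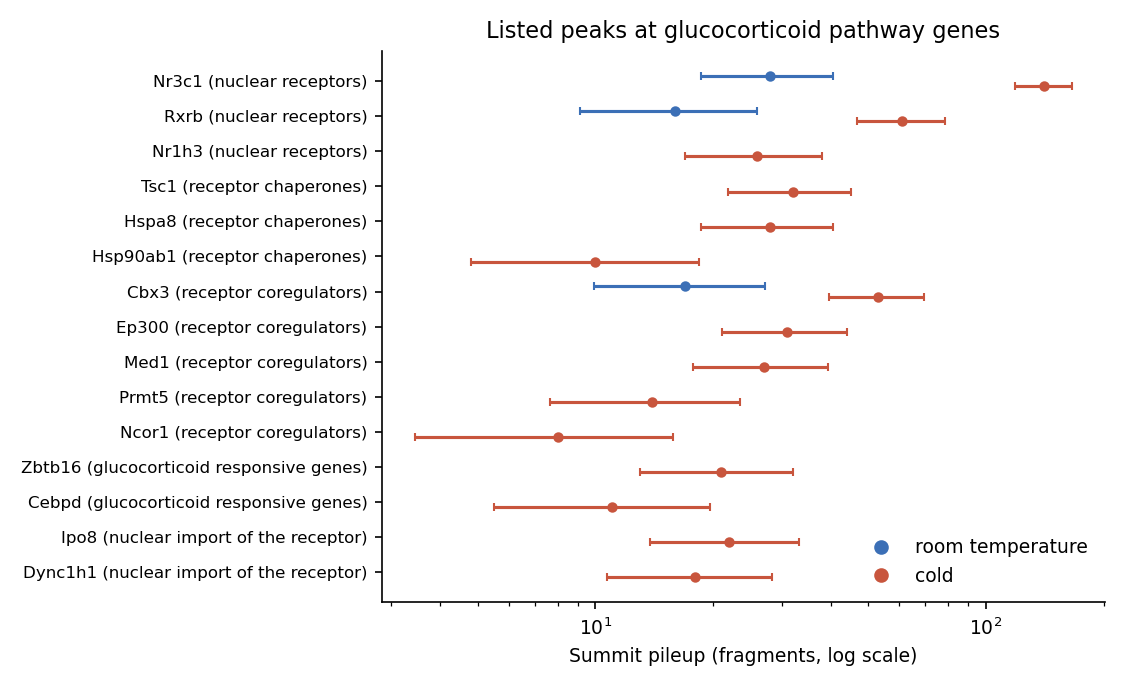
Summit pileup in fragments (log axis) of the strongest listed peak at each gene of the nuclear receptor, chaperone, coregulator, response and nuclear import lists that had one, with exact 95% Poisson intervals; a missing blue point means no room temperature entry. Nr3c1, chosen for the strength of its peak, has 28 and 141 fragments, and only Rxrb and Cbx3 also appear in both libraries.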

How the data were processed

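The 2 libraries profile YY1 in adipocytes at room temperature and after cold. Reads were processed with BWA, SAMtools, MACS2, deepTools and DESeq2 on mm10, per the submitters' processing notes. Their versions and settings, the control library and the handling of duplicates were not given in the sources used here. Each library has its own list, in which the authors deposited a score, a fold enrichment (linear ratio), a −log10 p-value and a −log10 q-value per entry. Multiplying the −log10 p by 10 and dropping decimals gave the deposited score in 1424 of 1424 entries.

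Pileup and background were computed from the deposited fold, (pileup + 1) / (background + 1), and the Poisson p, taking the whole pileup that matched both. All 165 and 1259 entries matched within 0.0002. Simulated pileups, built with the same formula, were recovered for 165 and 1259 entries, which checks the inversion and not the formula. Library depth is unknown, so precision is given by 95% counting intervals, and fragments can include PCR copies. Entries overlapping by at least 1 bp were shared, each paired with its strongest cold entry. A gene had a peak where a summit lay inside it or within 1 kb of an end (RefSeq GRCm38.p6, which matched all list genes by symbol). Coordinates are 1-based. Python 3.11.15 and scipy 1.17.1 were used, and no p-value was computed between conditions.

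Nr3c1 and the gene lists were chosen with earlier results of these data known. Named were its neighbours by rank (3 either side) and position, the 5 peaks most like it in pileup, the strongest peaks inside genes and up to 8 members per list. Other genes named for their ratio, background or lack of an entry, and the motif, were chosen after their values were seen.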

Additional observations from a re-analysis of the deposited data

How the results depend on the processing

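The count of 1 entry per list stayed at 1 inside the gene only, with windows of 10 kb, 500 kb and 1 Mb, with a −log10 q of at least 3 and with overlapping entries merged. The rank of the Nr3c1 peak at room temperature (2 by −log10 q) was 5 by pileup and 32 by width, and after cold (6) it was 2 by pileup, 24 by fold enrichment and 161 by width. The ratio of 5.04 moved to 2.12 with fold enrichments, and its rank of 16 to 107, since the background is divided out there. The nuclear receptor count at room temperature (2) fell to 1 with gene ends only and to 1 with peaks assigned to the nearest gene end, because Nr3c1 is then left out. After cold it went from 3 to 20 of the 49 genes within 100 kb of the gene. Over all protein-coding genes, the same change took the share with a cold summit from 6.43% to 24.9%. The other 26 values stayed within the interval or 1.5 times of those reported. One of them, chosen after seeing the data, kept 1 room temperature entry per cold entry, which left 151 pairs with a median ratio of 3.25 and Nr3c1 14th. No paired analysis was possible because a single library stands for each condition, and for the same reason no library could be left out. Depth is unknown and there are no replicates, which limits all values above.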

Other observations

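Of the 5 marker lists of 8 genes each, those of adipocytes, macrophages, preadipocytes and fibroblasts, and lymphocytes had a peak at 0 of their genes in either library (interval up to 36.9%). The endothelial list had 1 after cold, Pecam1, with 18 fragments (10.7 to 28.4). Of all protein-coding genes, 0.864% had a room temperature peak and 6.43% a cold one.

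Part of the recovered backgrounds fell on steps of fixed size. After cold 421 of 1259 entries (33.4%) had a background of 1 to 7 times 0.663 fragments, within 0.0005 of a step, and at room temperature 46 of 165 (27.9%) had a whole multiple of 0.592. The cold background at Nr3c1 was 4 such steps, and 31 entries had the same one. At room temperature its background was not on a step (0.98 steps). The labels do not say what a step stands for. With the pileup of 141 unchanged, the fold enrichment at Nr3c1 would be 47.5 with 3 steps and 32.9 with 5, where 38.9 was deposited. With 1 step, as at 108 cold entries, it would be 85.4. No other entry was recalculated in this way, so these values give Nr3c1 no other place in the list.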
